A study of Danio rerio with 12 samples.

Results

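The Meis and Pbx genes encode homeodomain transcription factors of the TALE class. They were followed as a family of 10 genes, *meis1a*, *meis1b*, *meis2a*, *meis2b*, *meis3*, *pbx1a*, *pbx1b*, *pbx2*, *pbx3b* and *pbx4*, chosen by name from a table of 22158 zebrafish genes. All 10 were found and all 10 passed the filter on low counts, as did 19145 genes in all.

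Meis and Pbx proteins bind DNA as partners of each other and of Hox proteins. Through these complexes, Hox proteins of similar DNA preference gain sites that they would bind poorly alone, and Meis binding helps to keep Pbx in the nucleus. In the zebrafish embryo, *pbx4* (*lazarus*) and *pbx2* act with Hox genes in the hindbrain and with *hand2* in the heart muscle, and *meis2b* marks a compartment of the atrium. In the mouse, *Meis1* restrains the cell cycle of heart muscle cells after birth.

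RNA was sequenced from dissected heart tissues of adult fish in 12 bulk libraries, 2 for each of 6 groups. The groups were the sinus venosus (SV), the venous inlet of the heart, of *nr2f1a* aco mutants, the SV of wild-type (WT) fish, the WT bulbus arteriosus (BA), which is the elastic outflow vessel, the WT atrium, the ventricle of *nr2f1a* aco mutants and the WT ventricle. Mutant and WT fish were both labelled as of the AB/TU background (the methods of the study give AB/TL for WT fish), were aged 6 months to 1.5 years and had no other treatment in the labels, and each library pooled tissue from 20 fish of mixed cell types. The study compared the SV with the BA and with both chambers, and asked how the mutant SV differs from the WT SV. The nuclear receptor Nr2f1a is known for keeping atrial heart muscle cells atrial, and no mutant atrium or BA library was analysed. The study reports that adult mutant hearts are effectively without an atrium and have an enlarged SV. For the 4 mutant libraries the title and the genotype label give the mutant, but the tissue and source labels give WT, and they were used as mutant. The level of *nr2f1a* cannot check these labels because the mutant allele is still transcribed.

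Library totals ran from 28325098 to 60532949 counts (median 36798922.5), so that 1 count stood for 0.02287 to 0.02936 CPM, the counts scaled to a common library size. Where a gene had 0 counts in a library, up to 3 counts remained possible, and such floors and all counting intervals below cover counting error only. The BA, atrium and ventricles were each highest in a known marker, and no marker particular to the SV was read. *elnb*, an elastin that the study reports in smooth muscle of both the BA and the SV, was highest in the BA. It stood at 322 and 299 CPM in the BA and at no more than 59.7 CPM elsewhere. The atrial myosin *myh6* was highest in the atrium, at 1645 and 8450 CPM, and the ventricular myosin *vmhc* ran from 221 to 2099 CPM in the 4 ventricle libraries and stayed at or below 71.7 CPM elsewhere. Mutant SV replicate 1 and WT ventricle replicate 1 stood apart from their partners, with an estimated factor of unwanted variation of 2.07 and -1.72 (in SDs over the libraries). Calls between tissues that were lost without them are named below. Most values by genotype are given only with both in place. Libraries had been prepared in several batches, and since the sources used here do not say which library came from which batch, batch and group cannot be told apart. In bulk tissue, fewer cells of a type and less RNA per cell cannot be told apart either.

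Set side by side per gene length, in FPKM (counts scaled by gene length and library size), *meis1b* and *pbx2* had the highest median share of their families. *meis1b* made up 33.8% to 92.3% of the summed Meis FPKM of a library (median 59.9%), and *pbx2* made up 40.4% to 76.3% of the summed Pbx FPKM (median 62.6%). Next came *meis1a*, with 4.79% to 47.9% of the Meis sum, and *pbx4*, with 10.1% to 24.4% of the Pbx sum. *meis3* never passed 1.08% of the Meis sum and was 0% at its lowest. The share of *meis2b* was 0.05% of the Meis sum in mutant ventricle replicate 2, from 1 count. It was 50.0% in WT atrium replicate 2, where it passed that of *meis1b* (33.8%). In WT SV replicate 1 *meis1a* (47.9%) passed *meis1b* (40.8%). The share of *pbx3b* was 18.4% of the Pbx sum in mutant SV replicate 2 and 0% in WT ventricle replicate 1.

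The Meis sum exceeded the Pbx sum in all 12 libraries, by a ratio of 1.62 to 8.43. Summed Meis FPKM was 31.2 and 30.3 for the mutant SV, 31.9 and 20.1 for the WT SV, 33.2 and 40.7 for the BA, 23.6 and 46.7 for the atrium, 17.8 in both mutant ventricle libraries and 17.6 and 17.7 for the WT ventricle. The 4 ventricle libraries were thus the lowest and lay within a narrow band, below every other library. Summed Pbx FPKM was 7.69 and 9.01 for the mutant SV, 6.39 and 9.01 for the WT SV, 7.44 and 6.34 for the BA, 7.46 and 5.53 for the atrium, 10.96 and 6.61 for the mutant ventricle and 3.50 and 6.53 for the WT ventricle. The groups overlapped, and the lowest and highest Pbx sums both came from ventricle libraries. These sums are a description, with no test.

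**Figure D1:**
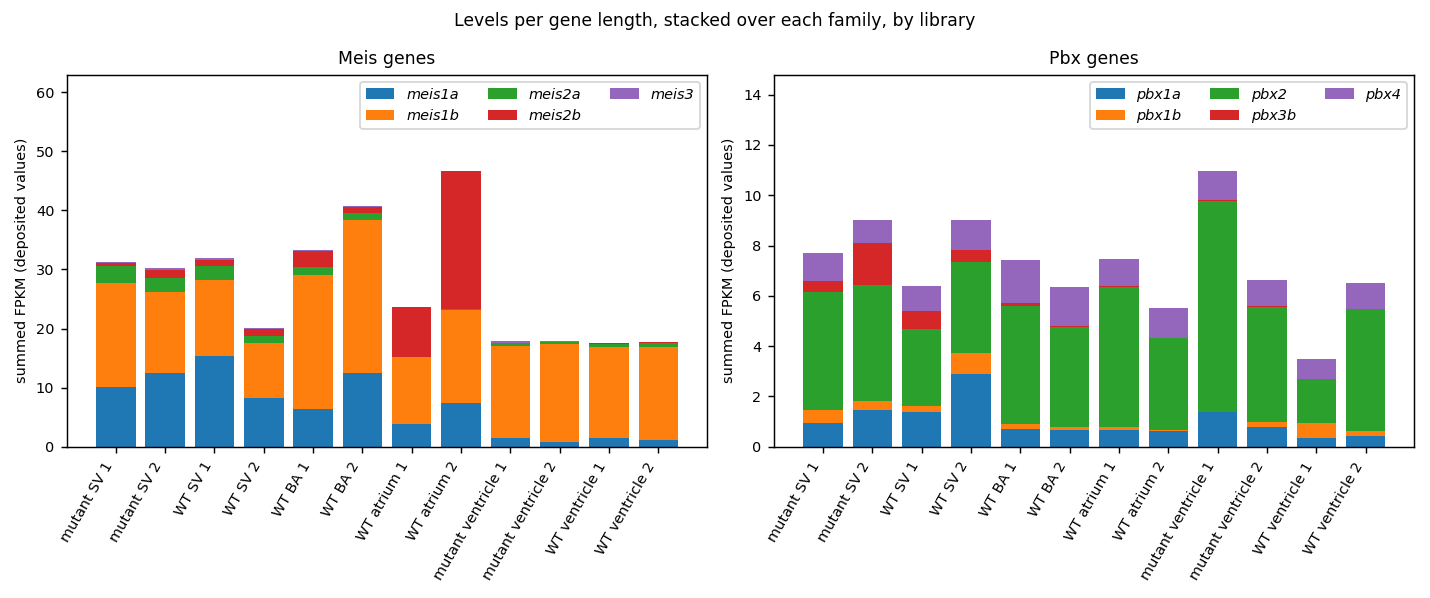
Summed FPKM of the 5 Meis genes (left) and the 5 Pbx genes (right), stacked by gene, for each of the 12 libraries. The Meis bars of the 4 ventricle libraries all stand between 17.6 and 17.8 FPKM and are nearly all *meis1b*, while *meis2b* fills 35.3% and 50.0% of the atrial bars; *pbx2* is the main part of most Pbx bars.

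*meis1b*, the leading Meis gene, differed least between tissues of the Meis genes with more than a few CPM. It had 51.6 and 43.2 CPM in the mutant SV, 38.8 and 28.6 CPM in the WT SV, 71.3 and 86.0 CPM in the BA, 35.8 and 53.6 CPM in the atrium, 49.0 and 55.7 CPM in the mutant ventricle and 47.3 and 53.3 CPM in the WT ventricle. Both BA libraries were above all 10 others, and the WT SV had the lowest mean, 33.7 ± 7.27 CPM against 78.7 ± 10.4 CPM in the BA (SD, n = 2 each). The WT SV was lower than the BA by a log2 fold change of -1.23 (SE 0.30, edgeR adjusted p = 0.017), and this was the only one of its 15 pairs of groups called, that is, with an adjusted p below 0.05. The call was lost without WT SV replicate 2 (-0.94), without BA replicate 2 (-1.09) and in a fit of these groups alone. The difference between the BA and the atrium was 0.79 (SE 0.30) and that between the mutant SV and the BA -0.83 (SE 0.31), with edgeR adjusted p of 0.096 and 0.136. In the GRCz12tu annotation, another assembly than the one the authors used, *meis1b* overlaps the models of 5 other protein-coding genes.

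*meis1a*, the paralogue of *meis1b*, was high in the SV and BA and low in the ventricle. It had 21.5 and 28.6 CPM in the mutant SV, 32.9 and 18.8 CPM in the WT SV, 14.3 and 30.1 CPM in the BA, 9.01 and 18.2 CPM in the atrium, 3.18 and 2.08 CPM in the mutant ventricle and 3.17 and 2.76 CPM in the WT ventricle. The 4 ventricle libraries lay below all others without overlap, while the mutant SV, WT SV and BA overlapped one another. Against the WT ventricle, *meis1a* was higher in the WT SV by a log2 fold change of 3.07 (SE 0.52, edgeR adjusted p = 0.00105), in the BA by 2.85 (SE 0.52, edgeR adjusted p = 0.0019) and in the atrium by 2.16 (SE 0.50, edgeR adjusted p = 0.0334). In mutants the SV exceeded the ventricle by 3.24 (SE 0.51, edgeR adjusted p = 0.0011).

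The SV and BA calls for *meis1a* held under every alternative tried, in WT and mutant fish. That of the atrium over the WT ventricle was lost when any 1 library of either tissue was left out (log2 fold change 1.6 to 2.7, edgeR adjusted p = 0.0881 to 0.168) and without both libraries that stood apart (2.38, edgeR adjusted p = 0.0869). Between the atrium and the vessels the step was smaller than its error allowed to call: the WT SV exceeded the atrium by 0.91 (SE 0.47, edgeR adjusted p = 0.202) and the BA exceeded it by 0.69 (SE 0.47, edgeR adjusted p = 0.355). In the order of group means, WT SV, mutant SV, BA, atrium, WT ventricle and mutant ventricle, the step between the atrium and the WT ventricle was the only one between neighbours that was called. The *meis1a* model overlaps that of *spred2a* in GRCz12tu.

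Between the vessels (SV and BA) and the chambers, the sums of smooth muscle and of cardiomyocyte markers moved in opposite directions. The summed CPM of 6 smooth muscle markers, all detected in every group, was 1204 and 5635 for the mutant SV, 3343 and 2594 for the WT SV, 9935 and 12520 for the BA, 552 and 109 for the atrium, 98.3 and 150 for the mutant ventricle and 213 and 171 for the WT ventricle. For 8 cardiomyocyte markers, also all detected in every group, it was 1099 and 361 for the mutant SV, 2177 and 1285 for the WT SV, 1676 and 436 for the BA, 30900 and 50450 for the atrium, 21470 and 59220 for the mutant ventricle and 51540 and 81370 for the WT ventricle. Single markers did not all follow the sums. Of the 8 cardiomyocyte markers, 1 was called higher and 7 lower for the WT SV over the WT ventricle, and likewise for the BA over the atrium. For the WT SV over the atrium 0 were higher and 7 lower, and for the BA over the WT ventricle 0 were higher and 8 lower. For the atrium over the WT ventricle, 0 of 6 smooth muscle markers were called, and of 8 cardiomyocyte markers 1 was higher and 1 lower. Other lists were also higher over the WT ventricle in the WT SV, BA and atrium, where 35.7%, 26.7% and 5.11% of all genes were called. These were 5, 4 and 4 of 5 leukocyte, 5, 4 and 3 of 7 fibroblast and epicardial, and 4, 4 and 4 of 4 erythrocyte markers. Of 6 neuron and glia markers tested, 5, 2 and 2 were higher. In these lists 0 were lower. The part of these cell types in the differences of any Meis or Pbx gene was not tested.

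**Figure D2:**
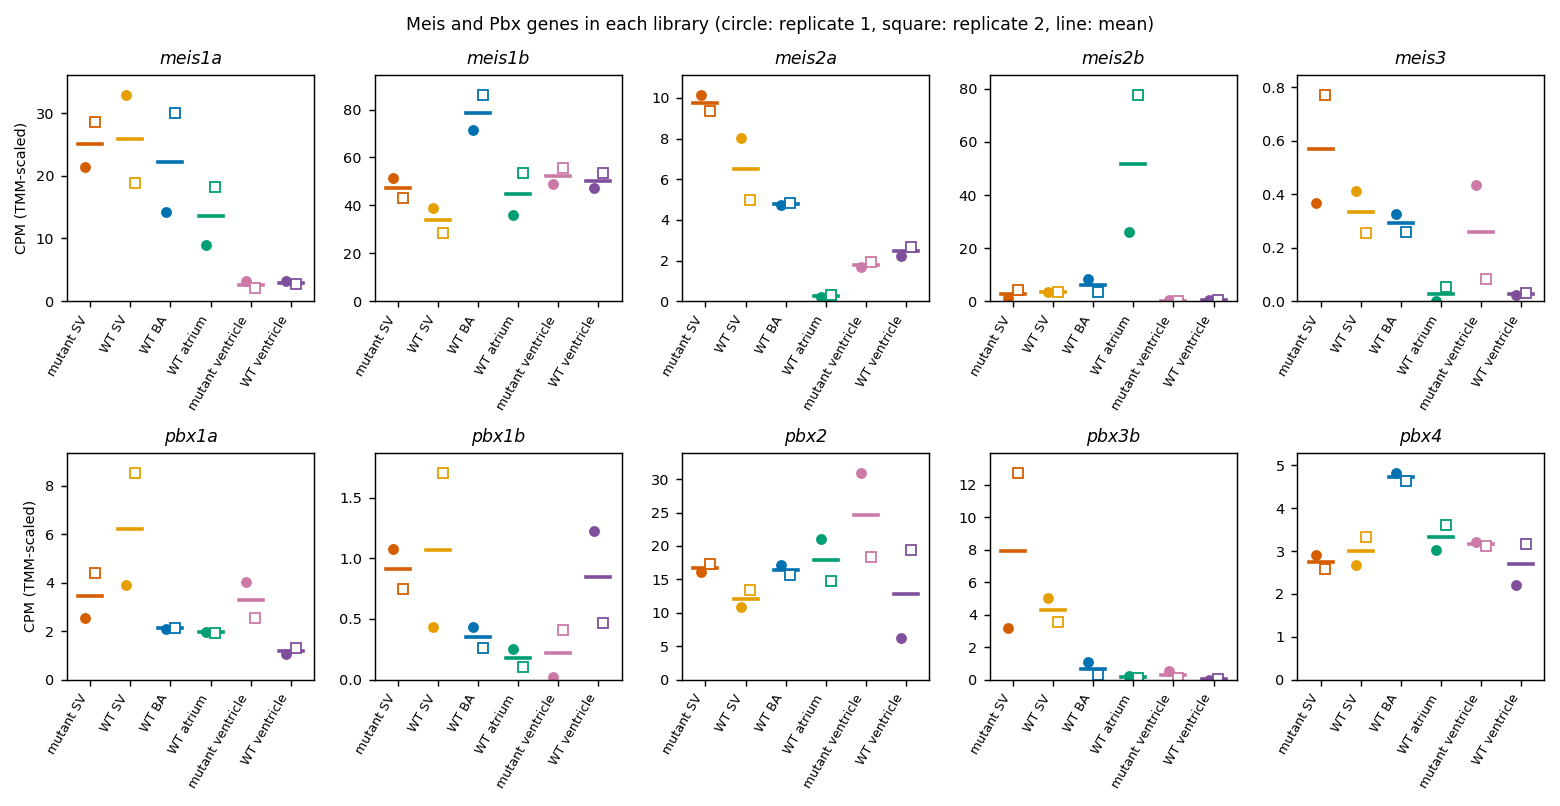
CPM of each of the 10 genes in every library, on a linear axis that starts at 0 and has its own scale for each gene (circles are replicate 1, squares replicate 2 and lines group means). *meis2b* stands out in the atrium at 25.9 and 77.7 CPM, *pbx3b* in both SV groups, and *meis1a* falls into a low set of 4 ventricle libraries between 2.08 and 3.18 CPM.

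*meis2a* and *meis2b*, paralogues of one another, had opposite extremes in the atrium. *meis2a* had 10.1 and 9.34 CPM in the mutant SV, 8.05 and 4.98 CPM in the WT SV, 4.73 and 4.81 CPM in the BA, 0.200 and 0.295 CPM in the atrium, 1.69 and 1.92 CPM in the mutant ventricle and 2.24 and 2.67 CPM in the WT ventricle. None of the 6 groups overlapped another. The atrium was lowest, with 8 and 11 counts.

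Of the 15 pairs of groups, 10 were called for *meis2a*. The WT SV exceeded the atrium by a log2 fold change of 4.68 (SE 0.47, edgeR adjusted p = 0.000143) and the BA exceeded it by 4.24 (SE 0.46, edgeR adjusted p = 0.000146). Atrial *meis2a* was also below that of the WT ventricle (-3.31, SE 0.45, edgeR adjusted p = 0.0041). The calls of the WT SV and of the BA over the atrium, and that of the mutant SV over the mutant ventricle (2.41, SE 0.40, edgeR adjusted p = 0.00153), held under every alternative. Without atrium replicate 1 the atrium no longer passed the threshold against the ventricle (-3.07, edgeR adjusted p = 0.0767). The WT SV exceeded the WT ventricle by 1.38 (SE 0.39, edgeR adjusted p = 0.0189), a call that was lost without WT SV replicate 1 (0.96), without either WT ventricle library (1.29 without replicate 1, 1.52 without replicate 2) and without both libraries that stood apart (edgeR adjusted p = 0.134). Between the BA and the WT ventricle the difference was 0.93 (SE 0.39, edgeR adjusted p = 0.103). In the order of means the mutant ventricle and the atrium were the only neighbours called (log2 fold change 2.81, edgeR adjusted p = 0.0113).

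*meis2b* had 1.12 and 4.26 CPM in the mutant SV, 3.36 and 3.66 CPM in the WT SV, 8.32 and 3.56 CPM in the BA, 25.9 and 77.7 CPM in the atrium, 0.289 and 0.0274 CPM in the mutant ventricle and 0.418 and 0.323 CPM in the WT ventricle. Both atrial libraries were above all others but far apart from one another, the SV and BA groups overlapped at an intermediate level, and the 4 ventricle libraries were lowest. The atrium exceeded the WT ventricle by a log2 fold change of 7.20 (SE 0.97, edgeR adjusted p = 0.00406), and the BA exceeded the WT ventricle by 4.06 (SE 0.88, edgeR adjusted p = 0.00551). Both calls held under every alternative.

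The WT SV had less *meis2b* than the atrium (log2 fold change -3.87, SE 0.79, edgeR adjusted p = 0.00548), as did the BA (-3.14, SE 0.77, edgeR adjusted p = 0.0146). Both calls rested on atrium replicate 2, the higher one. Without it the values were -2.54 for the WT SV (edgeR adjusted p = 0.084) and -1.85 for the BA (edgeR adjusted p = 0.185), and the BA call was also lost without BA replicate 2 (-2.66, edgeR adjusted p = 0.0645). Over the WT ventricle the WT SV was higher by 3.32 (SE 0.88, edgeR adjusted p = 0.0135), lost without WT ventricle replicate 1 (3.38) or replicate 2 (3.11). In mutants the SV exceeded the ventricle by 3.96 (SE 0.94, edgeR adjusted p = 0.0114), lost without mutant ventricle replicate 2 (3.10, edgeR adjusted p = 0.0646) and in a fit of these groups alone (4.06, edgeR adjusted p = 0.0819). Without mutant ventricle replicate 1 it was 6.49, with 1 count left in the mutant ventricle. The order of means had 2 called steps, from the atrium to the BA and from the mutant SV to the WT ventricle (log2 fold change 2.95, edgeR adjusted p = 0.0279).

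The atrial marker *myh6* was, like *meis2b*, highest in the atrium. *myh6* had 39.7 and 5.51 CPM in the mutant SV, 304 and 202 CPM in the WT SV, 4.43 and 4.94 CPM in the BA, 1645 and 8450 CPM in the atrium, 14.7 and 6.74 CPM in the mutant ventricle and 23.2 and 121 CPM in the WT ventricle. Atrium replicate 2 was the higher of the atrial pair for both genes. The part of atrial tissue in the *meis2b* level of the other groups was not tested.

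**Figure D3:**
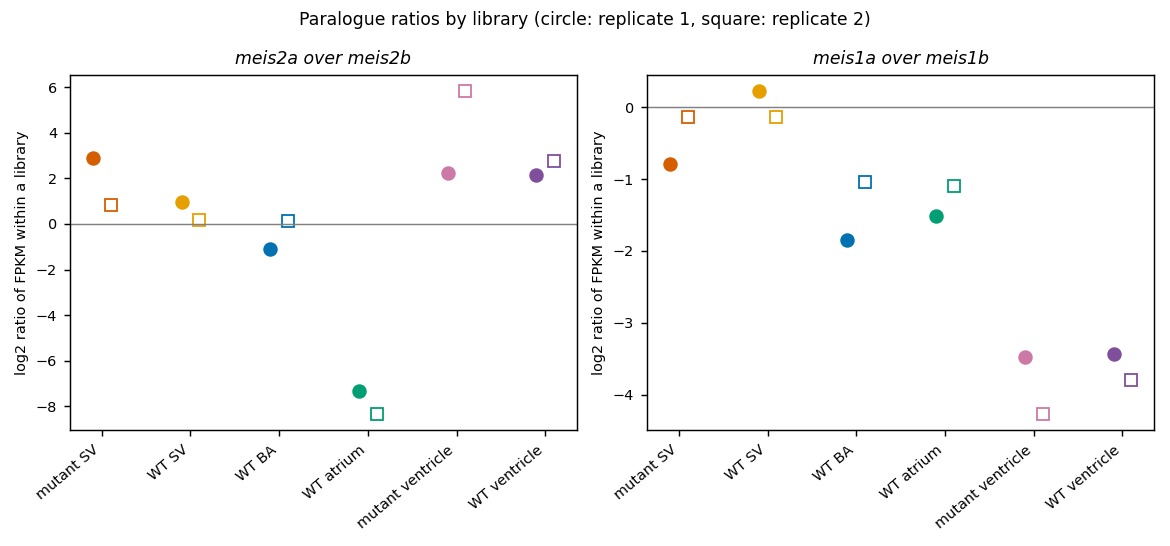
Log2 ratio of FPKM of *meis2a* over *meis2b* (left) and of *meis1a* over *meis1b* (right) in each library, with a line at equal levels. The *meis2a* ratio is -7.31 and -8.33 in the atrium and between 2.13 and 5.84 in the 4 ventricle libraries, and the *meis1a* ratio is between -3.43 and -4.27 in the ventricles and between -0.79 and 0.23 in the SV groups. The value of 5.84, in mutant ventricle replicate 2, rests on 1 count of *meis2b*.

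Because both genes of a pair were read in the same library, their ratio does not depend on the depth or scaling of that library. The log2 ratio of *meis2a* to *meis2b*, per length, was 2.89 and 0.84 for the mutant SV, 0.97 and 0.16 for the WT SV, -1.10 and 0.14 for the BA, -7.31 and -8.33 for the atrium, 2.25 and 5.84 for the mutant ventricle and 2.13 and 2.76 for the WT ventricle. Only the atrium and BA replicate 1 had more *meis2b* than *meis2a*. The ventricle libraries held 1 to 17 counts of *meis2b*, with 1 in mutant ventricle replicate 2, and the atrium 8 and 11 of *meis2a*. The size of these ratios is therefore imprecise. The log2 ratio of *meis1a* to *meis1b* was -0.79 and -0.13 for the mutant SV, 0.23 and -0.13 for the WT SV, -1.85 and -1.04 for the BA, -1.52 and -1.09 for the atrium, -3.48 and -4.27 for the mutant ventricle and -3.43 and -3.80 for the WT ventricle. The pair lay closest to equal in the 4 SV libraries, and *meis1a* was the minor one in every library outside the SV. An unequal ratio does not show which of the 2 genes changed, and no test was made on the ratios.

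*meis3*, which acts with *pbx4* in the zebrafish hindbrain, had the lowest median share of the Meis genes. Its counts were 16 and 32 for the mutant SV, 18 and 11 for the WT SV, 12 and 10 for the BA, 0 and 2 for the atrium, 18 and 3 for the mutant ventricle and 1 and 1 for the WT ventricle, or at most 0.770 CPM. The SV and BA libraries had 10 or more counts each, and the atrium and the WT ventricle had 2 in all in each group. With 2 counts in the second group, the ratio was 12.9 for the WT SV over the atrium (95% counting interval 3.27 to 112), 12.5 for the WT SV over the WT ventricle (3.17 to 108), 11.3 for the BA over the atrium (2.78 to 99.1) and 10.9 for the BA over the WT ventricle (2.69 to 95.9). None of the 6 pairs of WT tissues was called for *meis3*. Of all 15 pairs, that of the mutant SV and the WT ventricle was called (edgeR adjusted p = 0.0419).

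*pbx2*, the leading Pbx gene, and *pbx4*, the main embryonic Pbx gene of the zebrafish, were called in no pair of groups. *pbx2* had 16.1 and 17.3 CPM in the mutant SV, 10.8 and 13.4 CPM in the WT SV, 17.2 and 15.6 CPM in the BA, 21.0 and 14.7 CPM in the atrium, 30.9 and 18.4 CPM in the mutant ventricle and 6.29 and 19.4 CPM in the WT ventricle. Most groups overlapped, and the extremes were replicate 1 of the mutant ventricle and replicate 1 of the WT ventricle. Over the 15 pairs the edgeR adjusted p ran from 0.155 to 0.921 and the log2 fold change reached at most 0.92 in size.

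*pbx4* had 2.91 and 2.58 CPM in the mutant SV, 2.68 and 3.33 CPM in the WT SV, 4.81 and 4.63 CPM in the BA, 3.03 and 3.62 CPM in the atrium, 3.20 and 3.13 CPM in the mutant ventricle and 2.21 and 3.17 CPM in the WT ventricle. Both BA libraries lay above the other 10, which ran from 2.21 to 3.62 CPM. No difference passed the threshold, with edgeR adjusted p of 0.168 to 0.97 and a log2 fold change of at most 0.90 in size. For the WT SV against the BA the 95% interval of the log2 fold change was -1.48 to 0.14, and for the BA against the WT ventricle it was -0.07 to 1.58, so that these data do not show equal levels.

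The Pbx gene *pbx1a* was highest in the WT SV. It had 2.54 and 4.38 CPM in the mutant SV, 3.91 and 8.50 CPM in the WT SV, 2.09 and 2.13 CPM in the BA, 1.95 and 1.93 CPM in the atrium, 4.04 and 2.52 CPM in the mutant ventricle and 1.03 and 1.29 CPM in the WT ventricle. The WT SV did not overlap the other WT tissues, and WT SV replicate 2 stood far above all other libraries. The WT SV exceeded the WT ventricle by a log2 fold change of 2.41 (SE 0.53, edgeR adjusted p = 0.00523), which held under every alternative. It exceeded the atrium by 1.67 (SE 0.51, edgeR adjusted p = 0.04), but this call was lost in 6 of 13 alternatives. Among them were the fits without WT SV replicate 2 (1.06) and without either atrial library (1.67 without replicate 1, 1.69 without replicate 2). The call was also lost without both libraries that stood apart (1.52, edgeR adjusted p = 0.063). Against the BA the difference was 1.55 (SE 0.50) and was not called (edgeR adjusted p = 0.0536). It was called with DESeq2 (1.63, adjusted p = 0.0118), and in edgeR with a filter at a mean CPM of 1 (adjusted p = 0.0444), with DESeq2 size factors (adjusted p = 0.0432) and without WT SV replicate 1 (2.01, adjusted p = 0.0419). Without WT SV replicate 2 it was 0.96 (edgeR adjusted p = 0.362). No neighbours in the order of its group means differed by a call.

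The paralogue *pbx1b* had 47 and 31 counts for the mutant SV, 19 and 73 for the WT SV, 16 and 10 for the BA, 10 and 4 for the atrium, 1 and 15 for the mutant ventricle and 50 and 16 for the WT ventricle. Replicates of the WT SV and of both ventricle groups differed more than most groups did, and the highest library held 1.70 CPM. None of the 15 pairs was called (edgeR adjusted p = 0.0979 to 0.975), which at this depth does not show equal levels.

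*pbx3b*, like *meis2a*, had its highest levels in the SV groups. The mouse *Pbx3* gene is known for its part in the neurons that drive breathing. *pbx3b* had 3.18 and 12.7 CPM in the mutant SV, 5.05 and 3.56 CPM in the WT SV, 1.09 and 0.260 CPM in the BA, 0.200 and 0.0804 CPM in the atrium, 0.505 and 0.0822 CPM in the mutant ventricle and 0 and 0.0294 CPM in the WT ventricle. All 4 SV libraries were above all 8 others, with 139 to 528 counts, and the WT ventricle had a single count over its 2 libraries. Mutant SV replicate 2 was the highest and mutant SV replicate 1 the lowest of these 4. The *pbx3b* model overlaps 1 other protein-coding model in GRCz12tu.

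The WT SV exceeded the atrium by a log2 fold change of 5.22 for *pbx3b* (SE 1.04, edgeR adjusted p = 0.00474), lost without atrium replicate 2 (4.79, edgeR adjusted p = 0.0652). In mutants the SV exceeded the ventricle by 4.47 (SE 0.95, edgeR adjusted p = 0.00651), which held under every alternative. Against the WT ventricle, with 1 count, the ratio was 323 for the WT SV (95% counting interval 57.6 to 12780, edgeR adjusted p = 0.00081) and 49.7 for the BA (8.52 to 2002, edgeR adjusted p = 0.0122). The WT SV call held under every alternative, and that of the BA was lost without BA replicate 1 (edgeR adjusted p = 0.0776), without WT ventricle replicate 1 (edgeR adjusted p = 0.146) and without both libraries that stood apart (edgeR adjusted p = 0.1). For the atrium over the WT ventricle the ratio was 10.6 (1.55 to 458), not called.

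The step of *pbx3b* from the WT SV to the BA was 2.77 (SE 0.87, edgeR adjusted p = 0.0487). It lay at the edge of the threshold and was lost in 8 of 13 alternatives, among them without WT SV replicate 1 (2.57), WT SV replicate 2 (2.99) or BA replicate 2 (2.05), with edgeR adjusted p of up to 0.165. The mutant SV exceeded the BA by 3.77 (SE 0.92, edgeR adjusted p = 0.0322), lost without mutant SV replicate 2 (1.84, edgeR adjusted p = 0.346) or BA replicate 2 (3.05, edgeR adjusted p = 0.0869). It was also lost without the factor of unwanted variation (3.56, edgeR adjusted p = 0.062) and in a fit of these groups alone (3.62, edgeR adjusted p = 0.133). In the order of means, the WT SV and the BA were the only neighbours called.

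Markers of other cell types were also high in some of the SV libraries, where *pbx3b* was high. The summed CPM of 7 neuron and glia markers was 5.63 and 24.3 for the mutant SV, 58.8 and 19.7 for the WT SV, 2.39 and 1.2 for the BA, 15.6 and 7.07 for the atrium, 2.72 and 1.92 for the mutant ventricle and 2.65 and 2.29 for the WT ventricle. The neuronal gene *elavl3* had 0 counts in the BA and WT ventricle. *th*, of catecholamine synthesis, was at 0.0963 CPM in mutant SV replicate 2, at 0.116 CPM in WT SV replicate 2 and at 0 in the other 10 libraries. In those SV libraries 1 count stood for 0.0241 and 0.0233 CPM. The *th* values are thus a few counts, hardly above the floor of 3 counts for a zero. *gfap* did not follow the SV, with 0.401 and 0.375 CPM in the atrium and 0.160 to 0.265 CPM in the SV groups. Most of the sum of WT SV replicate 1 was *mbpa*, at 47.8 CPM. Both atrial sums lay above that of mutant SV replicate 1. For 6 enterocyte markers the sum was 480 and 599 in the WT SV but 5.31 and 4.96 in the mutant SV and under 2 in all others. For 5 hepatocyte markers it was 4339 and 343 for the mutant SV, 316 and 513 for the WT SV, 309 and 341 for the BA and at most 61.5 elsewhere. The BA sum was nearly all *tfa*, at 307 and 340 CPM, and 4 of the 5 hepatocyte markers were called higher for the WT SV over the BA. Of the 6 enterocyte markers, 5 were called higher for the WT SV over the BA, 1 for the mutant SV over the BA and 3 for the mutant SV over the mutant ventricle. Of 6 neuron and glia markers tested, 4 were called higher for the WT SV over the BA, 2 over the atrium and 5 over the WT ventricle. For the mutant SV, 3 were higher over the BA and 4 over the mutant ventricle, and 0 were lower in any of these comparisons. Of the 5 hepatocyte markers, 4 were called higher for the mutant SV over the BA and 5 over the mutant ventricle. In these comparisons 7.32% to 35.7% of all genes were called. The part of neuronal, gut or liver tissue in the SV level of *pbx3b* was not tested.

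The 6 comparisons between WT tissues share libraries, so their counts are not independent. Between the WT SV and the atrium, 4 of the 10 genes were called, 3 higher and 1 lower, against 20.6% of all genes tested, and the median log2 fold change of the 10 was 1.29 against 0.06 over all genes. Between the WT SV and the WT ventricle, 5 were called, all higher in the SV, where 35.7% of all genes were called and 19.4% were called higher; the median was 1.90 against 0.21. The WT SV and the BA differed in 2 of the 10, 1 in each direction, against 18.1% of all genes, with a median of 0.20 against 0.06.

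In the BA against the atrium, 2 were called, 1 in each direction, against 18.6% of all genes (median 0.74 against -0.01). Against the WT ventricle, 3 were called in the BA, all higher, where 26.7% of all genes were called and 13.8% called higher (median 0.90 against 0.16). The atrium and the WT ventricle differed in 3 of the 10, 2 higher and 1 lower in the atrium, where 5.11% of all genes were called (median 0.43 against 0.07). In mutants, 4 were called between the SV and the ventricle, all higher in the SV, where 21% of all genes were called and 9.86% called higher (median 1.78 against 0.03). In the mutant SV against the BA, *pbx3b* was the single call, against 7.32% of all genes. Over the 6 WT pairs, 6 of the 10 genes had a call in at least 1 pair, as had 49.4% of all genes tested.

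The number of genes whose libraries did not overlap was 6 of 10 in the WT SV against the BA (60.6% of all genes), 8 against the atrium (61.4%) and 7 against the WT ventricle (70.7%). For the BA it was 8 against the atrium (55.3%) and 9 against the WT ventricle (59.4%), and for the atrium against the WT ventricle 6 (49.1%).

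**Figure D4:**
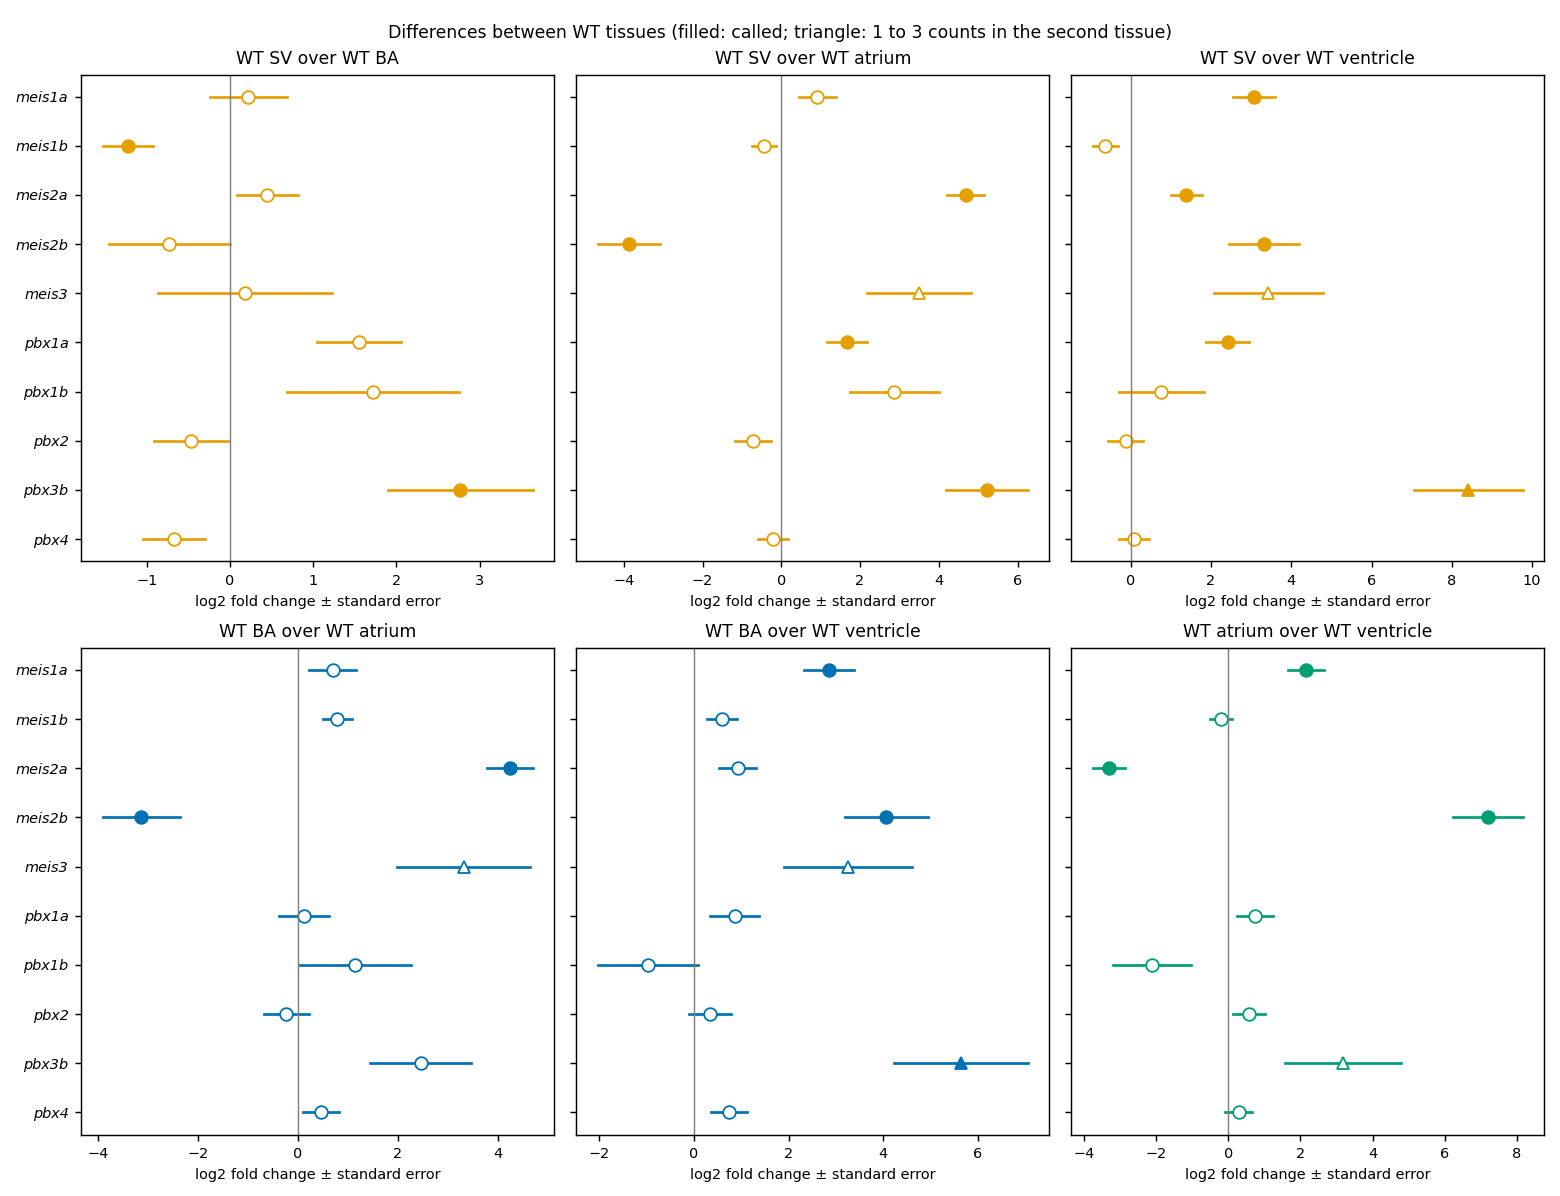
Log2 fold change with its standard error for each gene in the 6 comparisons between WT tissues, the first-named tissue over the second (filled symbols are called, and triangles have 1 to 3 counts in the second tissue, where the fitted value is no measure of size; *meis3* is left out of the atrium over the ventricle). *meis2a* and *meis2b* lie on opposite sides of 0 in both comparisons with the atrium as second tissue and in the atrium over the ventricle, and *pbx2* and *pbx4* stay near 0.

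The mutant SV and WT SV did not differ in any of the 10 genes by the test. With edgeR 0 were called and 0 had an unadjusted p below 0.05, and DESeq2 called 0, where edgeR called 1.54% of all genes. The log2 fold changes ran from -0.84 for *pbx1a* (95% interval -1.93 to 0.24) to 1.0 for *pbx3b* (95% interval -0.78 to 2.78), with edgeR adjusted p of 0.497 to 0.975. For *meis2a*, which did not overlap, the mutant SV was at 9.74 ± 0.569 CPM and the WT SV at 6.52 ± 2.17 CPM (SD, n = 2 each), with a log2 fold change of 0.53 (95% interval -0.32 to 1.39, edgeR adjusted p = 0.603). Without mutant SV replicate 2 the *pbx3b* value changed sign, to -0.82 (edgeR adjusted p = 0.781). In 3 of the 10 genes the mutant and WT SV libraries did not overlap, against 47.6% of all genes. Several intervals reach past 2-fold, so equal levels were not shown.

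The mutant ventricle and WT ventricle gave the same count of calls. With edgeR 0 of the 10 were called, as with DESeq2, and edgeR called 0.272% of all genes. An unadjusted edgeR p below 0.05 was found for 2 of them. Libraries did not overlap for 6 of the 10, against 47.2% of all genes. *pbx1a* was 1.5 on the log2 scale above the WT ventricle (95% interval 0.29 to 2.71, edgeR adjusted p = 0.256), with 4.04 and 2.52 CPM in mutant libraries and 1.03 and 1.29 CPM in WT libraries. *pbx3b* had 21 and 3 counts in the mutant ventricle and 0 and 1 in the WT ventricle, a ratio of 23.0 (95% counting interval 3.75 to 946), with an edgeR adjusted p of 0.205. For *meis3* the ratio was 10.1 (2.46 to 88.5), with 18 of the 21 mutant counts in replicate 1. *meis2a* differed by -0.50 (95% interval -1.40 to 0.40, edgeR adjusted p = 0.599).

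Whether genotype acted unequally on the SV and the ventricle was tested as an interaction. With edgeR 0 of the 10 genes passed and 2 had an unadjusted p below 0.05, where 0.198% of all genes were called. *pbx1a* had the lowest p. Its mutant to WT difference in the SV lay below that in the ventricle by -2.34 on the log2 scale (SE 0.72, 95% interval -3.93 to -0.75), with a p of 0.00781 before and 0.234 after adjustment in edgeR, and DESeq2 put it just past the threshold (-2.36, adjusted p = 0.0492). The values behind it are 3.46 ± 1.30 CPM in the mutant SV against 6.21 ± 3.25 CPM in the WT SV, and 3.28 ± 1.08 CPM in the mutant ventricle against 1.16 ± 0.184 CPM in the WT ventricle (SD, n = 2 each). The other gene with an unadjusted p below 0.05 was *pbx3b* (-3.94, SE 1.79), with a p of 0.0499 before and 0.409 after adjustment in edgeR. The WT ventricle held 1 count of it in all, so its fitted value is no measure of size. For *meis2a* the interaction was 1.03 (95% interval -0.15 to 2.21, edgeR adjusted p = 0.469).

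Some cell type markers differed by genotype beside these values, where 1.54% of all genes were called in the SV and 0.272% in the ventricle. In the SV, 5 of 6 enterocyte, 2 of 4 erythrocyte and 1 of 8 cardiomyocyte markers were lower and 1 of 7 fibroblast and epicardial markers was higher in mutants, with summed fibroblast and epicardial levels of 1721 and 1526 CPM in the mutant SV and 645 and 621 CPM in the WT SV. In the ventricle, 1 of 8 cardiomyocyte markers was lower in mutants. The 2 mutant SV libraries were also unlike one another, with summed hepatocyte markers of 4339 and 343 CPM and smooth muscle markers of 1204 and 5635 CPM. The part of these cell types in the values of the Meis and Pbx genes was not tested.

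**Figure D5:**
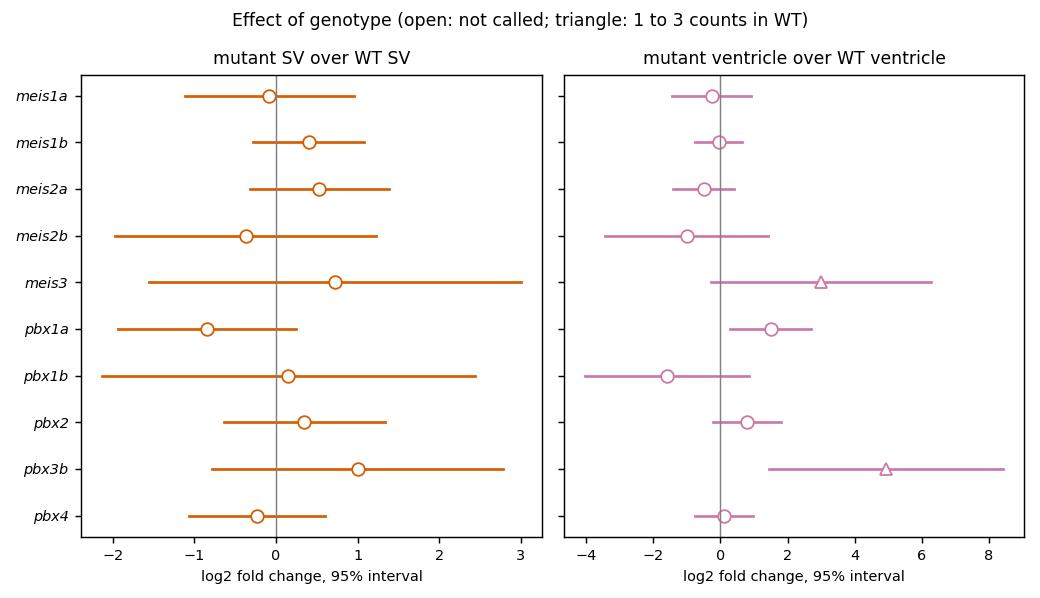
Log2 fold change of mutant over WT with its 95% interval for each gene, in the SV (left) and the ventricle (right). Every symbol is open since no gene was called, triangles mark genes with 1 to 3 counts in the WT ventricle, where the fitted value is no measure of size, and *pbx1a* lies at -0.84 in the SV and at 1.5 in the ventricle.

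Genes around the family were read from lists chosen by their known roles. Other TALE genes of the Pknox, Tgif and Mkx classes are related homeodomain factors, of which Pknox proteins also pair with Pbx. Of 6 listed, 5 were tested. *pknox1.1* had 13.8 and 20.4 CPM in the WT SV, 5.49 and 7.0 CPM in the BA and 11.6 and 12.9 CPM in the atrium. On the log2 scale it differed by 1.44 for the WT SV over the BA (edgeR adjusted p = 0.0111), and its BA level was below that of the atrium by -1.02 (edgeR adjusted p = 0.0487). *pknox2* was lower in both vessels, by -2.0 for the WT SV over the WT ventricle (edgeR adjusted p = 0.0224) and by -1.80 for the BA over the WT ventricle (edgeR adjusted p = 0.043). *tgif1*, a corepressor of Smad signalling, was higher by 3.68 for the BA over the WT ventricle (edgeR adjusted p = 0.00423), with BA replicates of 262 and 35.7 CPM that differed widely. *mkxa*, a tendon factor, had 0.897 and 1.25 CPM in the BA and 0 and 0.0268 CPM in the atrium, a difference that was called (edgeR adjusted p = 0.0151). No other TALE gene was called between mutant and WT in either tissue.

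All 6 listed proteins that bind Pbx or Meis without being Hox proteins were tested. *hand2*, which acts with Pbx in zebrafish heart muscle, had 51.4 and 34.4 CPM in the mutant SV, 23.5 and 15.9 CPM in the WT SV, 322 and 680 CPM in the BA, 132 and 222 CPM in the atrium, 243 and 205 CPM in the mutant ventricle and 149 and 239 CPM in the WT ventricle. The 4 SV libraries were below all others, so that *hand2* was low where *pbx3b* was high. Its log2 fold change was -4.67 for the WT SV over the BA and -3.45 for the WT SV over the WT ventricle (edgeR adjusted p = 0.000105 and 0.000132). Of the genes for Pbx-interacting proteins, *pbxip1a* differed by -1.68 and *pbxip1b* by -2.10 for the WT SV over the BA (edgeR adjusted p = 0.00798 and 0.00289). *pdx1*, a pancreas and gut factor that binds Pbx, was the single gene of the list called by genotype. It had 0.298 and 0.313 CPM in the mutant SV and 5.85 and 4.03 CPM in the WT SV. The log2 fold change was -4.01 (edgeR adjusted p = 0.00791), where 1.54% of all genes were called. *pdx1* moved with the enterocyte markers given above. The study reports it as enriched in the SV and, from single cells, in smooth muscle cells. The part of either cell type in its level was not tested.

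Among 10 genes described as targets of Meis or Pbx in other settings, 8 were in the table and tested. *cdkn1a*, a cell cycle inhibitor that *Meis1* activates in mouse heart muscle, had 17.2 and 25.2 CPM in the WT SV, 30.0 and 5.54 CPM in the BA and 7.26 and 2.89 CPM in the atrium. On the log2 scale it was higher by 2.47 for the WT SV over the atrium and by 2.05 for the BA over the atrium (edgeR adjusted p = 0.021 and 0.0446), although BA replicate 2 lay between the atrial values. *epas1a* and *epas1b*, both genes for the oxygen-sensing factor Hif2α, went in opposite directions between the BA and the WT ventricle, by 2.39 and -3.15 (edgeR adjusted p = 0.00121 and 0.000267). In all, 3 of the 8 were called higher and 1 lower for the WT SV over the atrium (20.6% of all genes were called in either direction) and 2 higher and 3 lower for the WT SV over the WT ventricle (35.7%). For the BA, 3 were higher and 2 lower over the atrium (18.6%) and 4 higher and 2 lower over the WT ventricle (26.7%). The list had 1 higher and 2 lower for the WT SV over the BA (18.1%), and 0 between mutant and WT in either tissue.

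Many Hox genes, whose proteins pair with Meis and Pbx, were higher in the SV. Of 21 Hox genes tested, 6 were higher for the WT SV over the BA, 12 over the atrium and 15 over the WT ventricle, where 18.1%, 20.6% and 35.7% of all genes were called in either direction. For the mutant SV over the mutant ventricle 16 were higher (21% of all genes called). For the BA, 4 were higher over the atrium (18.6%) and 5 over the WT ventricle (26.7%). None was lower in these 6 comparisons, and none was called between mutant and WT in either tissue. Among the tested Hox genes, only *hoxa1a*, *hoxa4a*, *hoxb2a* and *hoxb3a* had levels outside the SV that pass the filter by themselves. The SV carried the others past it. Of these others, *hoxb8a*, *hoxc4a*, *hoxc6a* and *hoxc8a* were at 0 CPM in every library outside the SV. *hoxb5b* and *hoxb7a* were close to this, with at most 0.0268 CPM in any library outside the SV. Genes that passed through the SV could hardly be called lower there, so the SV counts are in large part set by the filter. Of the 6 genes higher over the BA, only *hoxa4a* passes without the SV. *hoxa4a*, for example, had 4.97 and 11.1 CPM in the mutant SV, 7.73 and 5.47 CPM in the WT SV, 0.408 and 1.22 CPM in the BA, 0.275 and 0.348 CPM in the atrium, 0.722 and 0.548 CPM in the mutant ventricle and 0.147 and 0.0587 CPM in the WT ventricle. In contrast, *hoxb3a* had its highest levels in the BA, at 20.1 and 14.9 CPM, with 13.0 and 9.61 CPM for the mutant SV and 7.02 and 3.89 CPM for the WT SV. The difference of the WT SV from the BA was not called for *hoxb3a* (-1.70, edgeR adjusted p = 0.172).

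The genes most like each member were taken as those with the highest Pearson r of log2 CPM over the 12 libraries. They are a description, since the libraries share tissues and depth. For *meis1a* they were *cdr2l* (r = 0.96) and *ckba* (r = 0.95), for *meis1b* *mob2a* and *skib* (both r = 0.95), for *meis2a* *sh3pxd2ab* (r = 0.95) and the elastin gene *elna* (r = 0.93), and for *meis2b* *slc5a8l* (r = 0.92) and *gnao1a* (r = 0.91). Those of *meis3* were *fgf24* (r = 0.94) and *sulf2b* (r = 0.93). For *pbx3b* they were *prdx1* (r = 0.98) and *slc29a1a* (r = 0.97), for *pbx1a* *pds5b* (r = 0.96) and *arl6ip6* (r = 0.94), and for *pbx2* *sc:d217* (r = 0.94) and *frs2a* (r = 0.93). The nearest genes of *pbx4* were *wdfy1* and *ercc6* (both r = 0.92) and those of *pbx1b* *dhx38* (r = 0.90) and *exosc3* (r = 0.84). No member was among its own family's closest, as members were left out of this search.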

How the data were processed

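Adapters had been removed by the authors with cutadapt and reads mapped to danRer11 with STAR; all libraries were handled as single-end, and FeatureCounts gave uniquely mapped reads per gene, by strand and with overlapping genes allowed to share reads. The deposited table holds raw counts for 22158 genes and FPKM values that the authors scaled by DESeq2 size factors. Its columns of log2 fold changes and p-values are the authors' own deposited comparisons and were not used.

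Counts were filtered (19145 genes kept), scaled by TMM and fitted over all 12 libraries with edgeR 4.0.16 in R 4.3.3, a quasi-likelihood model of group and 1 RUVs factor, computed on all filtered genes with groups as replicate sets. The p-values were two-sided, with Benjamini-Hochberg adjustment across the tested genes and a threshold of 0.05 for a call. They rest on the spread between the 2 pooled libraries within groups, shared over all groups and moderated across genes. That spread may in part be technical. Replicate numbers were not taken to pair libraries, since the sources used here do not say that same-numbered libraries came from the same hearts. Replicates differed by more than counting noise, by 204 to 385 in chi-square per degree of freedom. The fit was also run on simulated counts with changes planted in the mutant SV. These counts had no other tissue differences and no factor of unwanted variation, so that run does not show how the fit performs on these data.

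The members, the gene lists and the tests were chosen with earlier results of these data known. Named are all members, the 2 genes nearest to each by r (a mean CPM of at least 1, prior count 2, no provisional symbol) and up to 4 called genes per list; *hoxa4a*, *hoxb3a*, *mkxa* and the markers shown singly were added after their values were seen. Gene overlaps come from the RefSeq table of GRCz12tu, in which all 10 members were found. Alternatives were no factor, DESeq2 1.42.0, DESeq2 size factors, a replicate block, no mitochondrial genes, no filter or one at a mean CPM of 1, only the groups compared, and each library left out.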

Additional observations from a re-analysis of the deposited data

How the results depend on the processing

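Of the 24 called differences of single Meis and Pbx genes, 11 kept their call under every alternative; of 312 recomputed values 268 kept direction and call, 44 kept the direction only and 0 reversed. The number of the 10 genes called between the WT SV and the BA was 2, and it was 3 with DESeq2, 3 with a filter at a mean CPM of 1, 1 without the RUVs factor, 1 with the replicate block, 1 without mitochondrially encoded genes, 0 with only the groups compared, and 0 to 2 with a replicate left out. Leaving out a replicate gave 1 to 4 in place of 4 for the WT SV over the atrium, 3 to 5 in place of 5 for the WT SV over the WT ventricle, 1 to 2 in place of 2 for the BA over the atrium, 1 to 2 in place of 3 for the atrium over the WT ventricle, and 0 to 1 in place of 1 for the mutant SV over the BA. The last was 0 without the factor, 0 with the replicate block and 0 with only the groups compared. For the interaction of genotype and tissue DESeq2 called 1 and edgeR 0. The cause of these changes was not tested.

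Of the values that were not called, *pbx3b* between the mutant and WT SV ran from -0.82 (edgeR, without mutant SV replicate 2) to 1.59 with a replicate left out. Without both libraries that stood apart, an alternative chosen after seeing the data, 4 were called between the WT SV and the WT ventricle and 2 each for the BA and the atrium over the WT ventricle, and with them 5, 3 and 3. DESeq2 size factors moved the median of all genes by 0.11 (log2) in the WT SV over the atrium and by at most 0.09 in the other comparisons.

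Counts over all genes depended on the method. With edgeR and DESeq2 they were 295 and 1011 for the mutant SV over the WT SV, 52 and 730 for the mutant over the WT ventricle, 978 and 2328 for the atrium over the WT ventricle, 1401 and 2578 for the mutant SV over the BA and 38 and 599 for the interaction. Deviations of same-numbered libraries correlated by -0.501 to 0.18 over 15 pairs of groups, with 0.139 to 0.18 among the WT SV, BA and atrium. The replicate block gave 3 in place of 4 of the 10 genes for the WT SV over the atrium (*pbx1a* was lost, 1.63, edgeR adjusted p = 0.0731), 2 in place of 3 for the atrium over the WT ventricle (*meis1a* was lost, 2.16, edgeR adjusted p = 0.0844) and, over all genes, 1664 in place of 3457 for the WT SV over the BA and 0 in place of 52 for the ventricles. Same-numbered libraries of the mutant and WT SV and of the ventricles deviated in opposite directions, and with crossed numbers 149 and 5 genes were called, 0 of them Meis or Pbx genes. With 2 libraries a group, *meis3*, *pbx1b*, the chamber levels of *pbx3b*, the ventricle levels of *meis2b* and the atrial level of *meis2a* rest on few counts. The alternatives were not run for the pairs of groups outside the comparisons above.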
